A study of Mus musculus with 4 samples.

Results

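Cells with transcripts of G2 and mitosis were picked out of Lineage- Sca-1+ cKit+ (LSK) bone marrow cells. They came from 2 single-cell libraries that each held wild-type and Sin3B knockout cells. A cell was counted as a member where it had a unique molecular identifier (UMI, 1 sequenced molecule) of at least 4 of 10 genes, namely Ube2c, Cenpf, Ccnb1, Aspm, Cdkn3, Hmmr, Ccnb2, Kif2c, Knstrn and Pif1. This rule gave 3069 members of 25236 tagged cells, of which 1872 of 16207 came from homeostasis and 1197 of 9029 from marrow treated with 5-fluorouracil (5-FU). The members were therefore selected on measured values, and every comparison of members with the other cells of their pool is a description without a test.

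The mice were C57BL/6. The wild-type cells came from Sin3B F/F animals without Cre, and the knockout cells from Sin3B F/F; Vav1-iCre animals, in which the Vav1 promoter drives Cre in hematopoietic cells. At homeostasis the mice had no drug, and the stressed mice had 100 mg/kg of 5-FU, an antimetabolite that kills dividing cells, 9 days before the marrow was taken. LSK cells of 2 mice were pooled for each genotype and condition, marked with an antibody carrying a DNA tag (a hashtag), and both genotypes of a condition were then run as 1 library of 3′ transcripts. There were thus 4 pools, each a single sample, given below in the order wild type at homeostasis, knockout at homeostasis, wild type after 5-FU and knockout after 5-FU. Since no pool had a replicate, no p-value was computed, the 95% intervals cover counting error only, and condition and library cannot be told apart.

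LSK cells hold the hematopoietic stem cells and the earliest multipotent progenitors of the mouse. In G2 the cell has copied its DNA, and CDK1 bound to cyclin B then drives it into mitosis, until the anaphase-promoting complex with its cofactor Cdc20 marks cyclin B for destruction. The genes of this stage are held down in resting cells by the DREAM complex and are switched on late in the cycle by B-Myb, FoxM1 and NF-Y, often through CCAAT boxes and a cell cycle homology region with the letters TTTGAA or TTTAAA. Sin3B is a scaffold that brings histone deacetylases to chromatin and has been linked to DREAM and to exit from the cycle.

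The members were deep cells. Their median was 13211, 13963, 19067 and 27575 UMIs in the 4 pools, against 6557, 6354, 8807 and 9872 in the other cells, so members had 2 to 3 times the transcripts of the rest. They also had a UMI of more genes, with medians of 4370, 4459, 4778 and 5601 against 2791, 2729, 3196 and 3403. The share of mitochondrial UMIs was alike, at 2.13%, 2.30%, 3.04% and 2.92% in members and 2.12%, 2.40%, 3.26% and 3.47% in the others. Barcodes that carried the hashtags of both genotypes, as droplets with more than 1 cell would, met the rule in 289 of 1441 cases at homeostasis (20.1%) and in 133 of 434 after 5-FU (30.6%). Those barcodes were left out, except where a setting went by the share of hashtag UMIs on 1 tag alone. Pairs of cells of 1 genotype could not be removed, and their part in the results was not tested. The libraries shared 33 barcodes among tagged cells.

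The 10 genes of the rule describe the stage. Ube2c, the ubiquitin-conjugating enzyme of the anaphase-promoting complex, had a UMI in 83.7%, 80.4%, 75.4% and 82.5% of members and in 5.19%, 3.71%, 3.57% and 4.04% of other cells. Cenpf, a kinetochore protein of G2 and mitosis, was found in 91.1%, 93.4%, 93.1% and 93.8% of members. Ccnb1 and Ccnb2 are the mitotic cyclins. Ccnb1 was found in 62.9%, 60.6%, 63.7% and 76.5% of members, and Ccnb2 in 87.0%, 90.1%, 86.6% and 88.9%. Pif1, a helicase, was the least often found, in 36.2%, 36.4%, 25.9% and 27.3% of members and in under 1% of the others in every pool. In CPM, a gene's UMIs divided by all UMIs of its pool and multiplied by 1000000, Ube2c stood at 300.6, 331.0, 332.1 and 306.9 in members and at 8.66, 5.51, 3.98 and 4.25 in the rest.

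Members just inside the rule were close to the cells just outside it. With 4 of the 10 genes there were 266, 60, 100 and 84 cells, and with 3 there were 359, 84, 120 and 116. The cells with 4 had medians of 11715, 13314, 17219 and 24420 UMIs, and those with 3 had 10633, 11228, 15577 and 20561. The summed level of 37 other genes of G2 and mitosis was 4569, 5714, 3863 and 3542 CPM with 4 and 3895, 3938, 2958 and 2622 CPM with 3. The rule thus cuts a continuous range of cells.

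The promoters of 4 of these genes are shown because the genes were chosen together and most of their windows hold 1 or more of the same short motifs. The sequences are the 250 bases before the transcription start on the strand of the gene, from RefSeq annotation of GRCm38.p6, with capitals for the box CCAAT and for the homology region as TTTGAA or as TTTAAA, each on either strand. On the opposite strand the box reads ATTGG, and the region in Ube2c reads TTCAAA. Ccnb2 lies at chr9:70421555-70421804 on the minus strand, Hmmr at chr11:40733438-40733687 on the minus strand, Ccnb1 at chr13:100786487-100786736 on the minus strand and Ube2c at chr2:164769679-164769928 on the plus strand.
Ccnb2: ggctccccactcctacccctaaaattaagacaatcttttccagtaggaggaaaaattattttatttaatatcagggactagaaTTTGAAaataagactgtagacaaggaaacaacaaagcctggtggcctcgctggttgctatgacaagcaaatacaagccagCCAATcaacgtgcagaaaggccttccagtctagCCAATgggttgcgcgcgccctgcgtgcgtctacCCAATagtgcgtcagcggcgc
Hmmr: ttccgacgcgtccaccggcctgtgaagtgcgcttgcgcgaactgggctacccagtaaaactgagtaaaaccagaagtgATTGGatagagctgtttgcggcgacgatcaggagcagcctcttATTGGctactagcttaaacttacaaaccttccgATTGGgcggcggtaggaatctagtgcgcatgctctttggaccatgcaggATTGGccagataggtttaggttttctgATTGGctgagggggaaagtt
Ccnb1: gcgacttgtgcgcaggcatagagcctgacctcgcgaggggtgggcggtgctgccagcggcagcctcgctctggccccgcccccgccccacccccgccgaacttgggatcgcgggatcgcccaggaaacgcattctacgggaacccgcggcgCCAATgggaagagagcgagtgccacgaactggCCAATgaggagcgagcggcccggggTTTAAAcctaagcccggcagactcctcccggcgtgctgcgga
Ube2c: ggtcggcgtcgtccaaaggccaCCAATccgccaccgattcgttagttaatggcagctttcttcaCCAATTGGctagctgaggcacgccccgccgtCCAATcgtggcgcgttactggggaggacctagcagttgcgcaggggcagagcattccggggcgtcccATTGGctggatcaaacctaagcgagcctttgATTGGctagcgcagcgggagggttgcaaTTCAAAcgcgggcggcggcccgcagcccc

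Ccnb2 had CCAAT at 87, 54 and 21 bases before the start, and Ccnb1 had it at 99 and 67 with TTTAAA at 42. The TTTGAA capitalized for Ccnb2 lies at 167 before the start. Another lies 4 bases after the start, outside the bases shown, and which of them acts was not tested. Hmmr, the hyaluronan receptor that also binds spindle microtubules, had 5 matches on the opposite strand, and Ube2c had 6, of which 2 overlap, with TTTGAA at 29 on the opposite strand. The 250 bases shown for Hmmr hold no such region, and its TTTGAA lies 8 bases after the start. In windows of 300 bases, from 250 before to 50 after the start, CCAAT was found in 7 of the 9 rule genes in the table, in all 7 at least 2 times, in 30 of 35 windows of the other G2 and mitosis genes (31 of 37 genes matched), and in 37.4% of all 32851 windows. TTTGAA was found in 7 of 9, in 23 of 35 and in 17.9% of all windows, and TTTAAA in 4 of 9, 6 of 35 and 13.2%. Of 27 windows of replication genes, 17 held CCAAT (63.0%), 3 held TTTGAA and 4 held TTTAAA. A match of letters is a description and not a binding site.

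The rest of the G2 and mitosis program was high in the members of every pool. All 37 further genes of G2 and mitosis were at least 2-fold higher in members than in the other cells in each pool, with medians of 3.44, 3.90, 3.65 and 3.59 on the log2 scale. Their summed level was 8272, 9517, 8209 and 7485 CPM against 1074, 891.5, 878.3 and 886.8. Over all genes with at least 50 UMIs in a pool, the shares past 2-fold were 2.86%, 4.09%, 4.03% and 3.9% upward and 4.21%, 8.02%, 7.72% and 10.2% downward, with all-gene medians between -0.19 and -0.09. The share of calls that were upward depends on the scaling. It was 34.3% and 27.6% after 5-FU, and 47.1% and 41.0% where the median of gene ratios set the scale.

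Among these 37, the phosphatase Cdc25c, which activates CDK1, was at 39.7, 42.8, 39.7 and 31.3 CPM in members and at 1.87, 1.01, 0.73 and 0.73 CPM in other cells. Plk1, the polo-like kinase of mitotic entry, was at 54.1, 63.7, 54.2 and 52.2 against 2.54, 1.77, 1.33 and 1.63. Nusap1, which binds spindle microtubules, was at 331.3, 382.6, 178.6 and 142.3 against 19.3, 17.7, 5.74 and 5.55. In each of these genes members were more than 15 times above the rest of their pool. Mki67, the proliferation antigen named after its values were seen, was at 679.8, 864.8, 1013 and 843.5 CPM against 54.6, 42, 61.8 and 56.9.

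Over all genes, 306 of 11863 (2.58%) were at least 2-fold higher in members of all 4 pools and 117 (0.986%) were lower, and 68 of the 306 were on a list. The 10 unlisted genes with the largest smallest ratio were Fam83d, Depdc1a, Arhgap19, Pimreg, Sapcd2, Kif18b, Prr11, Rtkn2, Kif14 and Hist1h2ab. Fam83d, which guides casein kinase to the spindle, was at 18.2, 19.3, 14.9 and 10.4 CPM against 0.77, 0.44, 0.58 and 0.31. Kif14, a kinesin of cytokinesis, was at 61.9, 74.8, 37.3 and 32.8 against 3.97, 2.12, 1.44 and 0.76. The histone gene Hist1h2ab was at 158.6, 225.4, 438.6 and 376.0 against 11.4, 9.31, 13.8 and 10.9. Histone genes are near copies of each other, so reads may be divided among them.

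The levels of G2 and replication genes differed with the number of rule genes found in a cell, which is the value that chose the members and is given as a description. The 37 other G2 and mitosis genes went from 698.4, 613.2, 616.4 and 568.8 CPM in cells with none of the 10 to 10915, 11936, 11664 and 10338 CPM in cells with 9 or 10. The 28 replication genes were highest before that point, at 3 genes in both homeostasis pools (2875 and 3504 CPM), at 4 in wild type after 5-FU (3865 CPM) and at 5 to 6 in the knockout after 5-FU (4491 CPM). With 9 or 10 they were at 1113, 1212, 1623 and 2261 CPM. With 4, the least that made a member, they were at 2715, 3444 and 3865 CPM in the first 3 pools. How many members were still in S phase was not tested. Cdc20, which starts anaphase and was named after its values were seen, was at 42, 47.9, 35.0 and 31.5 CPM with 4 genes and at 192.8, 195.9, 259.5 and 216.0 CPM with 9 or 10. Pcna, the sliding clamp of the replication fork and likewise named afterwards, ran the other way, from 257.2, 320.4, 406.2 and 398.8 CPM with 4 to 79.6, 87.1, 115.8 and 172.1 CPM with 9 or 10. Depth rose along the same order, from medians of 6235, 6172, 8207 and 8796 UMIs with none to 13901, 14430, 22370 and 29995 with 9 or 10, and its part in the order was not tested.

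**Figure D1:**
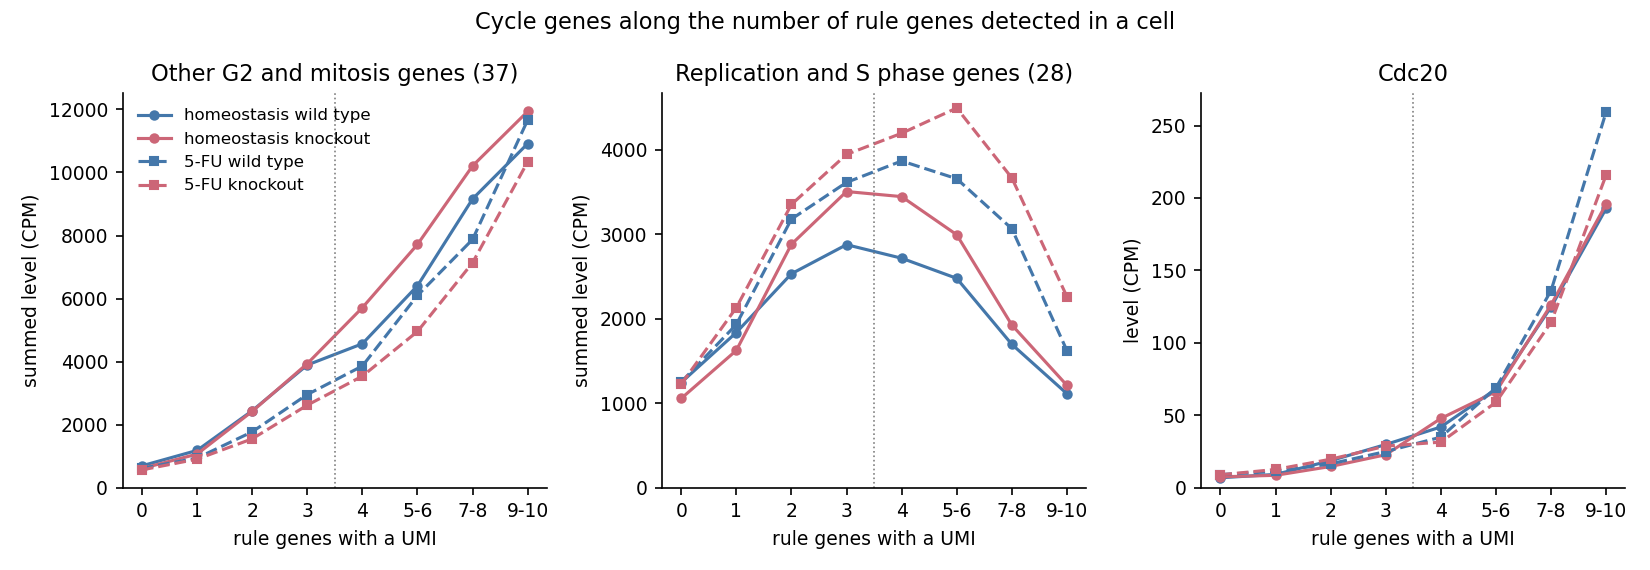
Summed CPM of the other G2 and mitosis genes and of the replication genes (vertical axes) by the number of rule genes found in a cell (horizontal axis), 1 line per pool. The G2 and mitosis genes climb to between 10338 and 11936 CPM, while the replication genes peak at 3 to 6 rule genes and then fall.

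Over all members the replication genes were mixed. Of 28, 5, 6, 8 and 10 were at least 2-fold higher than in other cells of the 4 pools and 1, 1, 0 and 0 were lower, with medians of 0.21, 0.54, 0.71 and 0.80 on the log2 scale. Rrm2 and Rrm1 are the subunits of ribonucleotide reductase, which makes DNA precursors. Rrm2 was at 30.2, 56.4, 77.7 and 108.6 CPM against 14.3, 13.6, 20.1 and 24.6, and Rrm1 at 119.1, 143.5, 181.6 and 200.6 against 49.5, 47.7, 60.2 and 70.8. Clspn, a checkpoint adaptor at the fork, was at 68.9, 90.6, 124.9 and 138.9 against 27.9, 25.7, 37.3 and 42.

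Of the 15 G1 regulators and CDK inhibitors, 1, 3, 0 and 0 were at least 2-fold higher and 1, 3, 2 and 1 were lower. Cdkn1c (p57), an inhibitor known for keeping stem cells at rest, was at 9.23, 6.54, 8.24 and 7.29 CPM in members and at 15, 22.0, 17.7 and 26.8 CPM in other cells. The INK4 inhibitors Cdkn2c and Cdkn2d went the other way. Cdkn2c was at 43.0, 50.3, 43.6 and 40.6 against 18.3, 22.2, 27.0 and 23.1, and Cdkn2d at 43.4, 71.4, 88.3 and 91.5 against 23.5, 28.4, 48.3 and 55.1.

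Stem cell genes were lower in members. None of the 12 was 2-fold higher in any pool, and 2, 7, 5 and 8 were at least 2-fold lower, with medians of -0.60, -1.09, -0.92 and -1.31 on the log2 scale. Hlf, a transcription factor of stem cells, was at 466.7, 304.5, 224.1 and 165.5 CPM in members and at 624.4, 661.6, 527.0 and 509.1 CPM in other cells. Procr, a surface marker of long-term stem cells, was at 17.4, 16.8, 18.4 and 18.5 against 38.7, 58.0, 60.7 and 76.7. Sult1a1 was at 6.95, 8.41, 3.78 and 4.48 against 16.4, 53.0, 27.8 and 71.5. For Hlf, Procr and Sult1a1 the members were below the other cells in every pool.

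The genes that mark the sort were still present. Kit was at 343.1, 286.7, 158.3 and 117.0 CPM in members and at 386.5, 360.6, 239.5 and 210.7 CPM in other cells. Ly6a, which encodes Sca-1, was lower, at 39.9, 29.3, 69.5 and 95.1 against 83.1, 85.2, 149.0 and 172.5. Cd48, carried by progenitors past the stem cell stage, was higher, at 126.4, 75.7, 143.7 and 127.1 against 103.1, 52.8, 110.0 and 67.0.

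The 10 unlisted genes lowest in members were Cldn5, Clec14a, Efna1, Slfn5, Clip3, Runx1t1, Ptpn14, Cyp4b1, Meg3 and Pygm. Slfn5 and Meg3 were those with more than 10 UMIs in each member pool. Slfn5, of the Schlafen family, was at 5.74, 2.80, 4.12 and 2.32 CPM against 21.5, 17.1, 30.8 and 28.2. Meg3, an imprinted noncoding RNA, was at 2.89, 2.43, 2.57 and 0.76 against 9.09, 10.5, 19.8 and 10.0. Cldn5 was found with 11, 2, 0 and 9 UMIs in members.

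To ask which lineage genes a member held, each cell was thinned to 4000 UMIs and called positive for a program where it had a UMI of at least 3 genes of a list. The stem cell program was found in 50.5%, 43.3%, 26.3% and 23.6% of members and in 59.9%, 72.3%, 50.6% and 64.7% of other cells. It was rarer in members in every pool, by between 9.44 and 41.2 percentage points, but without thinning it was more frequent in members, by 2.37 points at homeostasis and 6.55 after 5-FU. Members with no program but the stem cell one made up 25.4%, 26.9%, 13.3% and 12.9%, against 38.5%, 53.1%, 37.7% and 50.4% of other cells. Members with none of the programs made up 16.1%, 21.4%, 32.7% and 37.6%, against 14.8%, 13.4%, 24.8% and 20.3%. In a pool, more positive cells and more transcripts per cell cannot be told apart from a summed level alone.

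**Figure D2:**
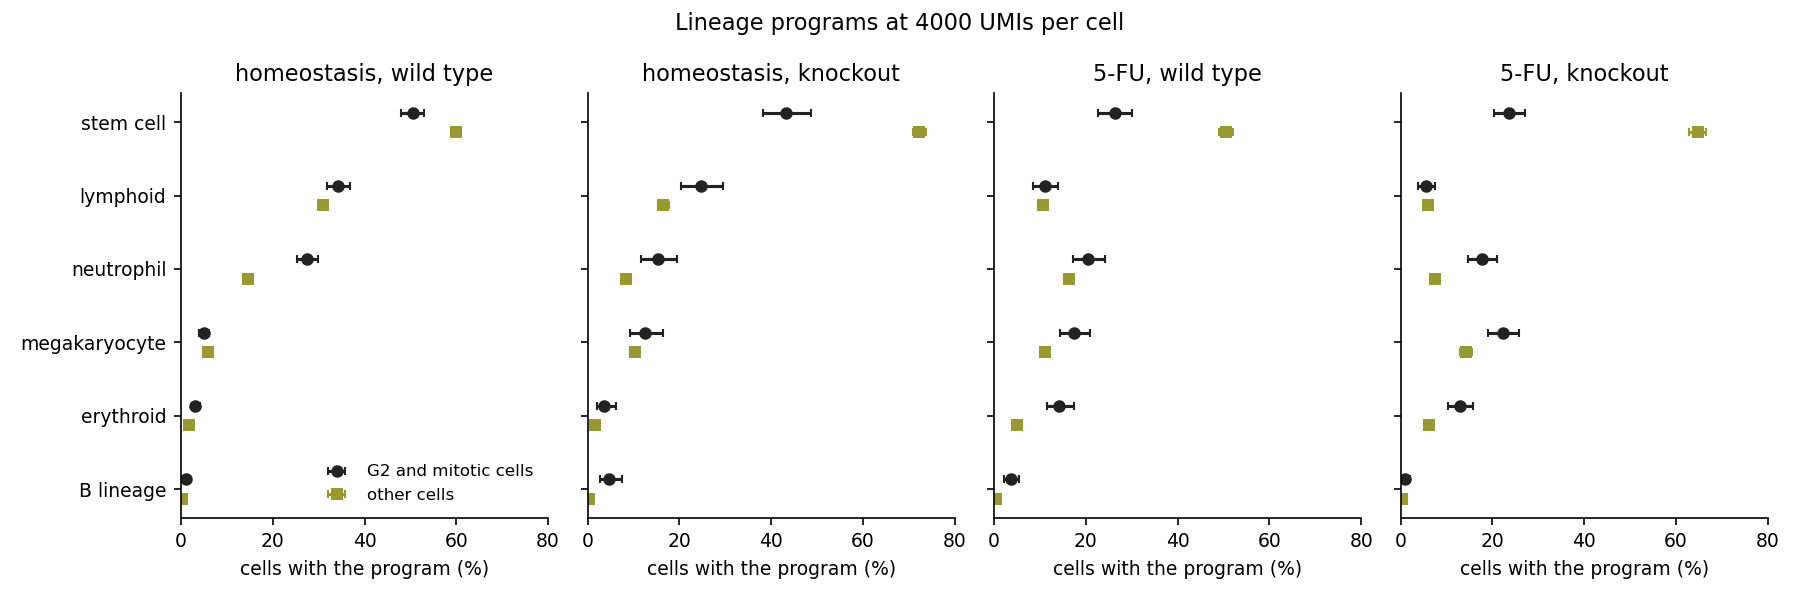
Share of cells with each lineage program at 4000 UMIs (percent), for members and other cells of the 4 pools, with exact 95% binomial intervals. The stem cell program is lower in members in each pool, from 50.5% against 59.9% to 23.6% against 64.7%.

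With members called at full depth, the neutrophil program was more frequent in them, at 27.4%, 15.3%, 20.5% and 17.7% against 14.5%, 8.32%, 16.3% and 7.40%. Its genes were higher too, with 7 of 10, 7 of 10, 8 of 11 and 8 of 11 past 2-fold and none lower. Elane, neutrophil elastase, was at 95, 143.9, 136.7 and 125.4 CPM in members and at 12.1, 12.0, 6.02 and 6.76 CPM in other cells. Ctsg, cathepsin G of the same granules, was at 145.2, 132.9, 316.5 and 242.0 against 52.9, 24.3, 74.5 and 33.5. Members with this program had less of the other G2 and mitosis genes, 7281, 7700, 5973 and 5295 CPM in the 4 pools, than those with no program, at 9315, 9735, 8502 and 7241 CPM. In wild type at homeostasis the erythroid, stem cell, lymphoid and megakaryocyte programs were also below that level, at 6654, 7732, 8111 and 8021 CPM. In the knockout at homeostasis the first pair was below it, at 6762 and 9564 CPM, and the other pair above it, at 10529 and 10020 CPM. After 5-FU all 4 programs were above it in both genotypes. In lymphoid program members at homeostasis, B lineage genes summed to 1802 CPM in the knockout and 147.9 CPM in the wild type. The 17 B lineage program members of that knockout pool had the other G2 and mitosis genes at 16863 CPM. Their part in the lymphoid level was not tested. After 5-FU the excess in members shrank from 6.35 to 1.07 points without the deepest 5% of cells.

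The erythroid program was found in 3.14%, 3.61%, 14.2% and 12.9% of members and in 1.72%, 1.59%, 4.94% and 6.20% of other cells. With both genotypes together the excess at homeostasis was 1.55 points (0.799 to 2.48). It was 0.938 (-0.886 to 2.88) where 2 genes of the list were enough, an interval across 0. Car1, an erythroid carbonic anhydrase, was at 44.7, 141.1, 23.4 and 19.4 CPM against 7.82, 18.6, 3.38 and 1.69. These levels rest on few cells, as the 5 highest members held 71.5%, 80.8%, 77.7% and 83.8% of the Car1 UMIs. Klf1, the erythroid master factor, was at 3.17, 11.4, 21.3 and 22.7 against 1.42, 2.25, 6.54 and 9.92. Car2, another carbonic anhydrase named after its values were seen, made up most of the list's summed level and was slightly lower in members, so the sum differed little, by 0.04, 0.26, 0.07 and -0.04 on the log2 scale, while the medians of the list were 0.84, 1.91, 1.13 and 0.72. No order is read from the erythroid share in the knockout after 5-FU, where the sum goes the other way. The megakaryocyte program was found in 4.94%, 12.5%, 17.4% and 22.3% of members and in 5.85%, 10.2%, 11% and 14.1% of other cells. The excess over other cells had intervals across 0 at homeostasis, and was 6.40 points (3.31 to 9.90) and 8.16 points (4.80 to 11.8) after 5-FU. With both genotypes together it was -0.749 points at homeostasis and 7.71 after 5-FU, and -4.58 (-6.53 to -2.54) and 3.05 (0.195 to 5.99) where 2 genes of the list were enough. Pf4, platelet factor 4, was at 32.7, 250.6, 449.7 and 638.9 CPM in members and at 35.1, 100.2, 122.9 and 339.5 CPM in other cells. Cells with both the erythroid and the megakaryocyte program were 0.534%, 0.833%, 5.76% and 7.48% of members and 0.249%, 0.333%, 2.03% and 3.15% of others.

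The lymphoid program was found in 34.2%, 24.7%, 11% and 5.41% of members and in 30.9%, 16.5%, 10.5% and 5.84% of other cells. The summed level of its genes was not higher in members, at 929.5, 705.9, 313.1 and 154.1 CPM against 1021, 709.2, 354.6 and 210.4, so no order is read from the shares. Flt3, the receptor of early lymphoid progenitors, was at 327.9, 269.5, 53.8 and 36.8 CPM against 397.7, 334.5, 89.8 and 61.4. Dntt, the terminal transferase of early lymphoid cells, was at 187.6, 81.9, 70.8 and 24.9 against 158.6, 64.8, 55.5 and 22.8.

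A small set of members carried B lineage genes. There were 16, 17, 20 and 6 such members, or 1.07%, 4.72%, 3.60% and 0.955%, against 0.141%, 0.230%, 0.464% and 0.177% of other cells. Of all cells with the B lineage program, 55.2%, 65.4%, 51.3% and 54.5% were members (of 29, 26, 39 and 11 cells). With the rule also applied at 4000 UMIs, 31.0%, 42.3%, 38.5% and 54.5% of them met it. Ebf1 and Pax5 are the factors that set B lineage fate, Igll1 is part of the surrogate light chain of the precursor B cell receptor, and Vpreb3 marks precursor B cells. Ebf1 was at 29.4, 250.1, 61.8 and 14.6 CPM in members and at 10.0, 30.4, 13.3 and 3.75 CPM in other cells, and Vpreb3 at 7.79, 55.9, 51.7 and 13.7 against 1.98, 8.46, 12.2 and 2.56. The B lineage members of the first 3 pools, leaving out the 6 cells of the last, had Mki67 at 850.7, 1814 and 2184 CPM, against 752.6, 916.4 and 1038 CPM in members with no program, so the gap was small in wild type at homeostasis. Their Kit was at 221.4, 98.3 and 123.7 CPM against 360.9, 304.0 and 159.4. Ly6a in these members was at 110.7, 14.7 and 43.7 CPM against 30.3, 28.7 and 91.1. Stem cell genes summed to 1422, 585.0 and 327.6 CPM against 1175, 916.4 and 575.2. Both were thus higher in wild type at homeostasis and lower in the other pools shown. Pf4 was at 17.5, 9.83 and 509.5 CPM against 17.2, 34.1 and 42.7, so the profile was mixed. Their Il7r, the interleukin-7 receptor of B precursors, was at 250.6, 334.3 and 505.9 CPM against 2.50, 5.38 and 0 CPM. The lineage markers of the sort included this receptor and the B cell marker B220. The paper also removed cells that expressed lineage markers and cells with genes of stem cells biased or primed toward a lineage. Further, it left out the extreme 2% of cells by genes, counts and mitochondrial share. The first 2 steps were not taken here, and the last was run only as an alternative setting. Whether these members were cells that the gate should have left out was not tested.

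**Figure D3:**
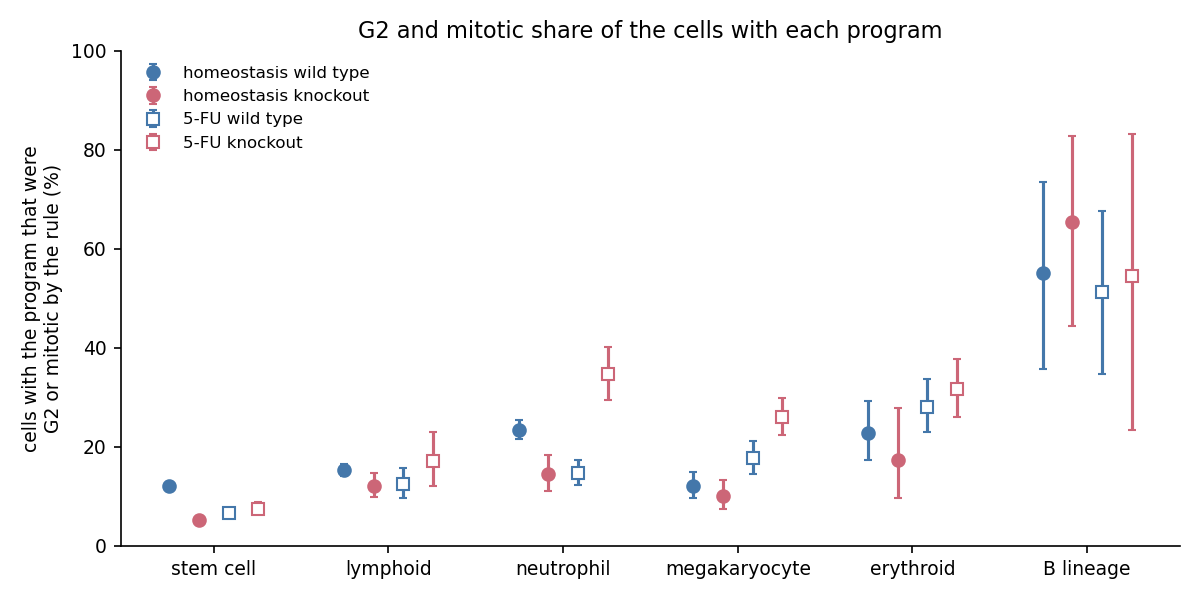
Percent of the cells with each lineage program at 4000 UMIs that were members by the rule at full depth, by pool, with exact 95% binomial intervals. B lineage cells stand between 51.3% and 65.4% and stem cell program cells between 5.23% and 12.0%, and with the rule at 4000 UMIs, which is not plotted, the ranges are 31.0% to 54.5% and 3.22% to 6.15%.

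Markers of cells outside the gate were uneven. The monocyte and mast cell programs were rare, with 6, 3, 3 and 1 and with 2, 0, 3 and 0 members, where 0 of 360 and 0 of 628 allow up to 1.02% and 0.586%. Of the monocyte and dendritic cell genes with at least 50 UMIs, 1 of 7, 2 of 6, 3 of 7 and 1 of 6 were 2-fold higher in members and 1 was lower, in the knockout after 5-FU, with medians of 0.32, 0.92, 0.13 and -0.01 on the log2 scale. F13a1, a monocyte gene past 2-fold in every pool, was at 18.6, 44.1, 10.9 and 6.48 CPM in members against 4.14, 5.35, 2.39 and 1.18. At least 1 UMI of the mature blood cell genes was found in 1199 of 1509, 298 of 363, 512 of 568 and 608 of 629 members. These genes summed to 444.0, 368.4, 314.6 and 482.0 CPM in members and 203.1, 348.3, 358.7 and 434.3 in other cells, and 1 cell held 32.9%, 64.7%, 30.2% and 40.1% of the members' UMIs. Ngp, a granule gene of late neutrophils, was found in 9, 1, 3 and 8 members. The list of stroma and endothelium summed to 195.9, 164.9, 69.5 and 61.3 CPM in members. Most of that was Pecam1, which blood progenitors also carry, and Col1a2, a collagen gene of stroma, had 41, 31, 114 and 185 UMIs. The mast cell, basophil and eosinophil list summed to 55.5, 37.8, 81.7 and 54.3 CPM in members and 34.7, 22.0, 38.9 and 24.7 CPM in other cells. Of its genes, the mast cell protease Cpa3 was at 39.1, 26.2, 36.6 and 25 CPM in members and the basophil protease Mcpt8 at 10.6, 8.22, 13.5 and 17.8 CPM, and the IgE receptor subunit Fcer1a had 30, 1, 216 and 11 UMIs. The stromal genes Cxcl12 and Dcn, the T cell gene Cd3e and the mast cell, basophil and eosinophil genes Cma1, Epx and Prss34 had 0 UMIs in the members of every pool. The part of such cells in the lineage results was not tested.

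The genotypes were then compared within each library. Sin3b itself was checked first. It was at 79.2 CPM in wild-type members and 21.3 in knockout members at homeostasis, and at 125.5 and 12.3 CPM after 5-FU. On the log2 scale knockout members stood at -1.89 (-2.18 to -1.62) and -3.35 (-3.57 to -3.15) relative to wild-type members, and for the other cells the ratios were -1.78 and -2.78. Sin3b was thus low but not at 0 in the members that carried the knockout hashtag, and 25.9% and 29.6% of them had a UMI of it. At homeostasis 1026 barcodes, 107 of them members, had 80% of their hashtag UMIs on the knockout tag. The knockout pool there had 4628 cells and 363 members, so most were tagged more weakly than that. After 5-FU 4542 barcodes had that share, with 709 members, where the pool had 3727 cells and 629 members.

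The share of members went in opposite directions. At homeostasis 1509 of 11579 wild-type cells (13%, 12.4 to 13.7) and 363 of 4628 knockout cells (7.84%, 7.08 to 8.66) were members, a difference of -5.19 points. After 5-FU it was 568 of 5302 wild-type cells (10.7%, 9.89 to 11.6) and 629 of 3727 knockout cells (16.9%, 15.7 to 18.1), a difference of 6.16 points. Both differences were larger than counting error, and the spread between mice was not measured. Depth moved with the second one, as knockout members after 5-FU had the highest median UMIs. At 4000 UMIs per cell the shares were 7.44%, 4.50%, 6.17% and 7.62%, with differences of -2.94 (-3.71 to -2.12) and 1.45 (0.335 to 2.59). Without the deepest 5% of cells the difference after 5-FU was 1.41 (0.121 to 2.73).

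**Figure D4:**
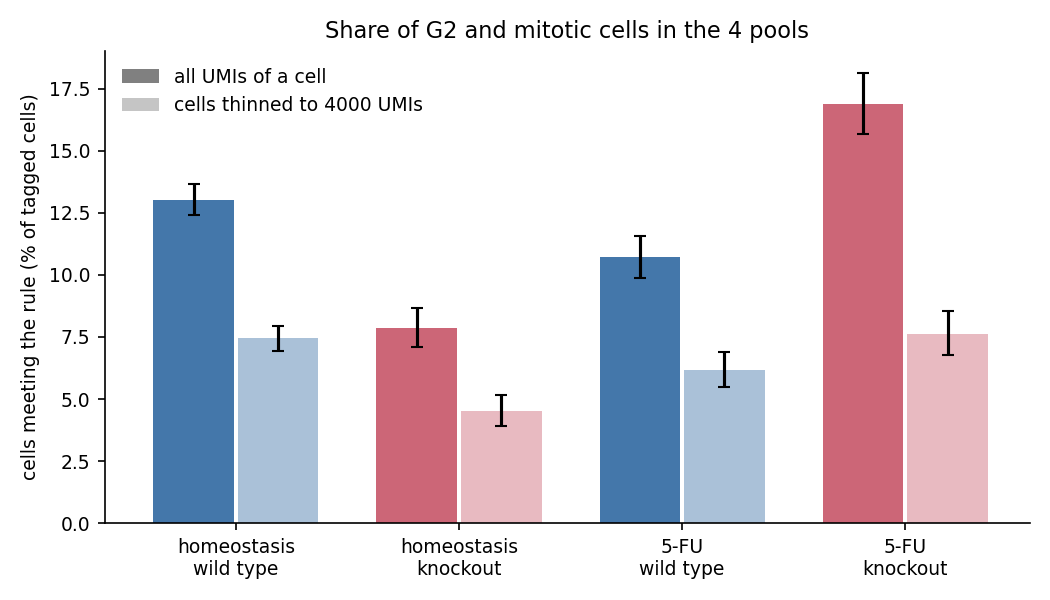
Percent of tagged cells that were members in the 4 pools, as found and after thinning to 4000 UMIs, with exact 95% binomial intervals. The knockout pool lies under the wild type at homeostasis (7.84% and 13%) and over it after 5-FU (16.9% and 10.7%), and thinning brings the pools to between 4.50% and 7.62%.

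The number and levels of the rule genes, which chose the members, are given only as a description. Cells with 9 or 10 rule genes were 31.7% of knockout and 28.1% of wild-type members at homeostasis, and 36.2% and 30.5% after 5-FU. Knockout members were the deeper cells in both libraries, with medians of 13963 against 13211 UMIs and of 27575 against 19067, more rule genes are found in deeper cells, and the part of depth in these shares was not tested. The 10 rule genes had a log2 ratio of the sum of 0.10 at homeostasis and -0.26 after 5-FU. None of the 10 was past 2-fold in either library.

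Over all genes with at least 50 UMIs in the members of a library, 117 of 12332 (0.949%) were at least 2-fold higher in the knockout at homeostasis and 271 (2.2%) were lower. After 5-FU 55 of 11471 (0.479%) were higher and 1.37% lower. The cycle genes were not among them, with 1 exception, Ung. Of the 37 other G2 and mitosis genes, 36 were higher in the knockout at homeostasis (median 0.21 on the log2 scale) and 5 after 5-FU (median -0.15), and none was past 2-fold. The summed log2 ratio was 0.20 (0.19 to 0.22) and -0.13 (-0.15 to -0.12), and the first turned to -0.06 where a cell needed 80% of its hashtag UMIs from 1 tag. Mki67 was at 864.8 CPM in knockout and 679.8 in wild-type members at homeostasis, and at 843.5 and 1013 CPM after 5-FU. Cdca8, a subunit of the chromosomal passenger complex, was at 288.8 and 206.2 CPM and then at 349.3 and 305.2 CPM.

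None of the 28 replication genes was 2-fold higher in knockout members in either library, and 1, Ung, was 2-fold lower at homeostasis. The knockout level was above that of the wild type in 25 of them at homeostasis (median 0.19) and in 28 after 5-FU (median 0.28), with summed log2 ratios of 0.21 (0.18 to 0.24) and 0.26 (0.24 to 0.28). In the other cells the sums were -0.20 and 0.15. Rrm2 was at 56.4 CPM in knockout and 30.2 in wild-type members at homeostasis, and at 108.6 and 77.7 CPM after 5-FU. Fen1, the flap nuclease of lagging strands, was at 56.1 and 41.7 and then at 101.0 and 73.6 CPM. Ung, which removes uracil from DNA, was at 3.6 against 7.3 CPM at homeostasis and at 24.2 and 16.7 CPM after 5-FU. The other genes not above the wild type at homeostasis were Chaf1b, of chromatin assembly factor 1, at 30.3 against 40.2 CPM, and the transcription factor E2f1, at 13.8 against 14 CPM, both named after their values were seen. No G1 regulator or CDK inhibitor was past 2-fold. Cdk6, which drives progenitors out of G1, was at 1128 and 1430 CPM at homeostasis and at 462.6 and 582.8 CPM after 5-FU. Ccnd1, cyclin D1, was at 9.16 and 11.4 and then at 46.8 and 30.3 CPM.

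**Figure D5:**
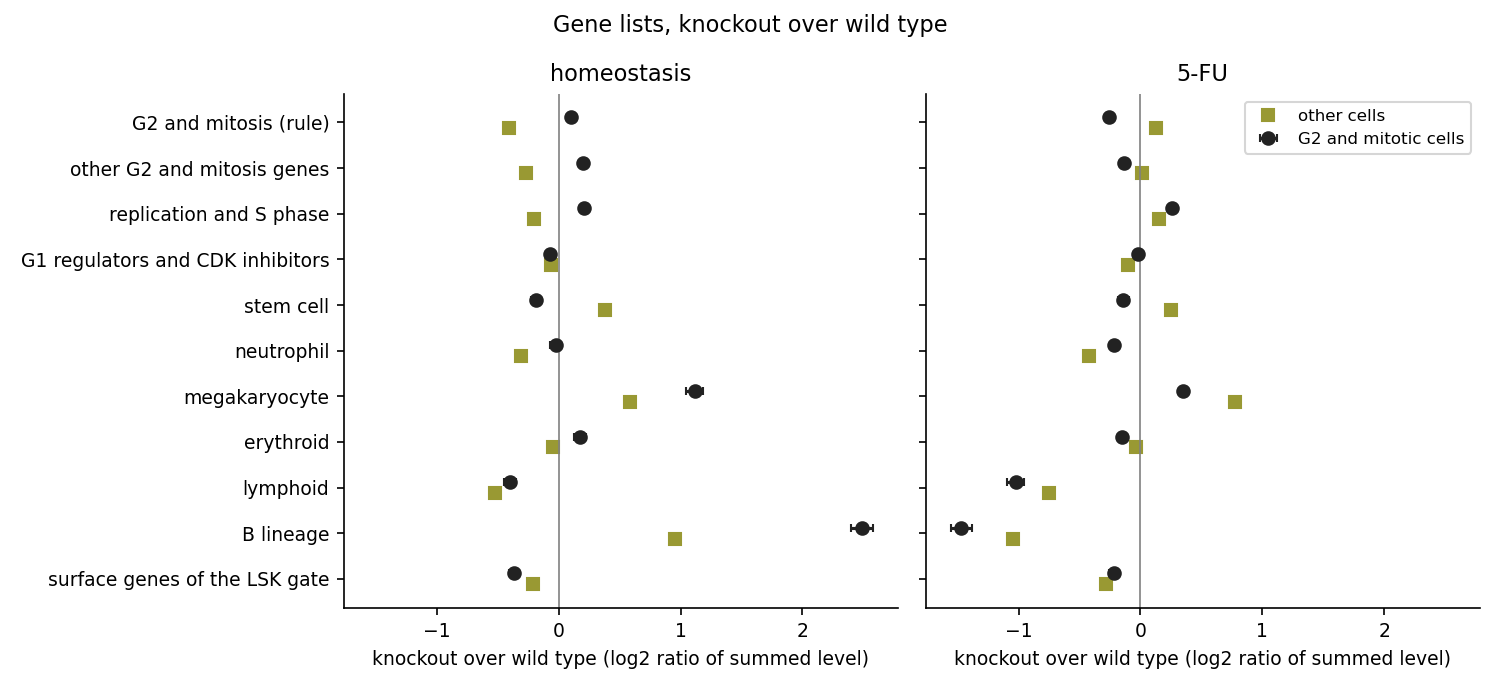
Log2 ratio of the summed level, knockout over wild type, for gene lists in members and in other cells, at homeostasis and after 5-FU, with exact 95% counting intervals for members. The monocyte, mast cell, mature blood cell and stroma lists are not plotted. In members the B lineage list lies at 2.49 at homeostasis and at -1.47 after 5-FU, while the G2 and mitosis lists lie between -0.26 and 0.20. In other cells the G2 and mitosis lists lie between -0.41 and 0.13.

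The stem cell program was then compared between genotypes in members and in other cells. In other cells it was more frequent in the knockout, by 12.4 points at homeostasis and 14.1 after 5-FU. Among members the differences were -7.13 points (-12.8 to -1.38) and -2.69 (-7.64 to 2.23). The difference between members and other cells was itself not tested. Hlf was at 304.5 CPM in knockout and 466.7 in wild-type members at homeostasis, and at 165.5 and 224.1 CPM after 5-FU. Slamf1 (CD150), a receptor that marks long-term stem cells, was at 13.3 and 4.43 and then at 35.9 and 31.8 CPM, so the list held genes of both directions. Of 12, 1 was 2-fold higher at homeostasis and none after 5-FU. The knockout level was above that of the wild type in 7 of the 12 at homeostasis and in 8 after 5-FU. The medians were 0.11 and 0.06 on the log2 scale, while the summed log2 ratios were -0.19 and -0.14.

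The megakaryocyte program was more frequent in knockout members at homeostasis. It was found in 12.5% of knockout and 4.94% of wild-type members, a difference of 7.56 points (4.30 to 11.5), and 4 of 8 genes were past 2-fold upward and none downward. Pf4 was at 250.6 against 32.7 CPM, and the 5 highest knockout cells held 55.0% of its UMIs. Vwf, von Willebrand factor, was at 15 against 4.80 CPM. After 5-FU the difference in the program was 4.85 points (0.277 to 9.35), none of the 9 genes with at least 50 UMIs was past 2-fold, and Pf4 was at 638.9 against 449.7 CPM. The other cells went the same way, by 4.38 points (3.35 to 5.48) at homeostasis and 3.09 (1.5 to 4.71) after 5-FU, and the summed log2 ratio was 1.11 and 0.35 in members and 0.59 and 0.78 in other cells. Of the erythroid genes 5 of 11 were past 2-fold upward at homeostasis and none downward, with Car1 at 141.1 against 44.7 CPM, but the erythroid program was found in 3.61% against 3.14% of members, 0.474 points apart (-1.33 to 3.06). The summed log2 ratio of the list was 0.17, with Car2 at 480.2 against 548.7 CPM. The 5 highest cells held 80.8% of the Car1 UMIs of the knockout and 71.5% of those of the wild type. After 5-FU 1 of 9 was higher, and the erythroid program differed by -1.31 points (-5.27 to 2.58). In the other cells that program differed by -0.133 points (-0.583 to 0.372) and 1.26 (0.171 to 2.40).

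Neutrophil program cells were fewer among knockout members at homeostasis, 15.3% against 27.4%, a difference of -12.2 points (-16.2 to -7.52). The summed level of the neutrophil genes was nearly the same, 1095 against 1115 CPM, and the 5 highest knockout cells held 40.0% of those UMIs against 13.5% in the wild type. After 5-FU the program was at 17.7% and 20.5%, and the interval of the difference ran across 0. The other cells were -6.21 points apart (-7.31 to -5.06) at homeostasis and -8.87 (-10.3 to -7.37) after 5-FU. Of the neutrophil genes with at least 50 UMIs in the members, 10 of 11 at homeostasis and all 11 after 5-FU, none was past 2-fold. The gene below that minimum was not assessed.

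The lymphoid program was less frequent in knockout members in both libraries. It was found in 24.7% against 34.2% at homeostasis, which is -9.52 points apart (-14.4 to -4.26). After 5-FU it was found in 5.41% against 11%, which is -5.56 points apart (-8.80 to -2.45). Of the list, 2 of 9 and 5 of 8 genes were past 2-fold downward and none upward. Dntt was at 81.9 against 187.6 CPM and at 24.9 against 70.8 CPM. Il7r went the other way at homeostasis, at 14.2 against 8.58 CPM, and was at 4.16 against 12.3 CPM after 5-FU, while Ighm, the heavy chain of IgM, was at 67.1 against 66.7 CPM and then at 17.8 against 51.7 CPM. In the other cells the program differed by -14.4 and -4.69 points, in the same direction.

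B lineage genes went in opposite directions in the libraries, and the difference between the libraries was not tested. At homeostasis 7 of 8 were at least 2-fold higher in knockout members, with a summed log2 ratio of 2.49 (2.40 to 2.58), and after 5-FU 7 of 8 were at least 2-fold lower, with -1.47 (-1.56 to -1.38). The other cells had the same directions, at 0.96 and -1.05. The program was found in 17 of 360 knockout and 16 of 1498 wild-type members at homeostasis, and in 6 of 628 and 20 of 556 after 5-FU. Ebf1 was at 250.1 against 29.4 CPM and then at 14.6 against 61.8 CPM, and it was found in 22 and 92 members and in 11 and 23. The 5 highest cells held 44.0% of the Ebf1 UMIs of the knockout and 57.1% of those of the wild type at homeostasis, and 86.3% and 34.6% after 5-FU, so these levels rest on few cells. Without cells that held a neutrophil, erythroid, megakaryocyte, lymphoid or B lineage program, which takes away the B lineage members themselves, the list at homeostasis was at -0.74.

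Some mature blood cell genes rested on very few cells. At homeostasis 6 of 10 were at least 2-fold lower in knockout members, and after 5-FU 3 of 8 were higher. For Ngp, 5 wild-type cells held 99.2% of its UMIs at homeostasis, and 1 knockout cell held 98.4% after 5-FU. Hbb-bs, a beta globin, was at 3.18 CPM in knockout and 43.3 in wild-type members at homeostasis, where 5 wild-type cells held 88.8% of its UMIs, and at 7.72 and 4.63 CPM after 5-FU, where it was spread over 63 and 32 members.

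Few genes differed by 2-fold in the members of both libraries, 7 of 11017 upward (0.0635%) and 33 downward (0.3%). Upward they were Sva, Mt2, Pik3r6, Mt1, Il5ra, Nupr1 and the erythroid blood group gene Ermap. Mt1 and Mt2 encode metallothioneins, which bind zinc and copper. Mt1 was at 117.2 CPM in knockout and 29.6 in wild-type members at homeostasis, and at 212.1 and 71.8 CPM after 5-FU. Mt2 was at 26.9 and 7.18 and then at 29.1 and 4.89 CPM, and the 5 highest knockout cells held 75% of its UMIs at homeostasis and 15.8% after 5-FU. Sva was at 14 and 2.01 and then at 3.45 and 0.26 CPM. These were not particular to members, since 6 of the 7 were past 2-fold in the other cells of both libraries too.

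Downward, the 10 with the largest smallest ratio were Slc16a11, Tmem215, Sin3b, Sgsm1, Ncam1, Tjp1, Clec10a, Auts2, Uchl1 and Ccl5, and Dntt was among the 33. Slc16a11, a monocarboxylate transporter, was at 2.62 CPM in knockout and 37.8 in wild-type members at homeostasis, and at 1.13 and 18.3 CPM after 5-FU. Tjp1, the tight junction protein ZO-1, was at 2.06 and 6.62 and then at 2.70 and 20.2 CPM. Auts2 was at 103.2 and 280.7 and then at 1.89 and 11.8 CPM. Of the 33, 14 were past 2-fold in the other cells of both libraries and 31 had the same direction there. Ccl5, a chemokine, was at 1.68 and 4.20 and then at 2.05 and 7.04 CPM, and its ratio at homeostasis turned to 0.25 where a cell needed 80% of its hashtag UMIs from 1 tag.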

How the data were processed

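The deposited matrices hold raw UMI counts per gene and barcode that the authors made with Cell Ranger, and the submitters' processing notes also name mm9 and Seurat. At homeostasis barcodes with at least 2921 UMIs were kept, and after 5-FU all 12753. Homeostasis rows were named from the 5-FU feature list after a check of row order (correlation of log sums 0.926, at most 0.395 with rows moved). Hashtags were called with HTODemux (Seurat 5.3.0, R 4.3.3, quantile 0.99). The hashtag of each genotype comes from the study's methods, since the labels do not give it. Counts were summed per pool with Python 3.11.15, numpy 2.4.6 and scipy 1.17.1. Ratios had 0.5 counts added and needed 50 UMIs over both pools. Thinning drew 4000 UMIs per cell, and shallower cells were left out (7.21%, 7.78%, 12.3% and 7.41% of the pools). Shares have Clopper-Pearson, differences Newcombe and ratios conditional binomial intervals. Named genes were those of the rule, up to 4 a list by mean absolute log2 ratio, and up to 10 a direction past 2-fold in both libraries or all 4 pools. Scripts were tested on simulated data. The members and lists were chosen with earlier results of these data known.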

Additional observations from a re-analysis of the deposited data

Results flagged for a closer look

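Knockout minus wild type went in opposite directions in the libraries for 8 measures, with both counting intervals clear of 0 in each, and the difference between the libraries was not tested. The share of G2 and mitotic cells differed by -5.19 points at homeostasis and 6.16 after 5-FU, and by -2.94 and 1.45 at 4000 UMIs per cell. The B lineage program among these cells differed by 3.65 and -2.64 points. On the log2 scale, B lineage genes were at 2.49 and -1.47, monocyte and dendritic cell genes at 0.63 and -0.66, and mature blood cell genes at -0.27 and 0.62. The 5 highest members held 45.6% (knockout) and 14.7% (wild type) of the monocyte and dendritic cell UMIs at homeostasis, and 22.1% and 38.2% after 5-FU. In the other cells that list was at -0.12 and -0.40, so not in opposite directions. The erythroid list was at 0.17 and -0.15. Genes of the rule, which chose the cells, were at 0.10 and -0.26, and the other G2 and mitosis genes at 0.20 and -0.13. Several of these signs turned under other settings. Without the extreme 2% of cells the mature blood cell genes were at 1.47 at homeostasis and the erythroid list at 0.0028 after 5-FU. Without lineage program cells, at homeostasis, the erythroid list was at -0.14, the B lineage list at -0.74, the mature blood cell list at 0.032 and the rule genes at -0.053. With 80% of hashtag UMIs on 1 tag, at homeostasis, the rule genes were at -0.31 and the other G2 and mitosis genes at -0.055.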

How the results depend on the processing

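No library could be left out and no paired analysis was possible because each genotype and condition was 1 pool. The knockout difference in the share of members kept its sign in all 12 alternatives. At homeostasis it went from -5.19 to -6.47 with at least 3 genes and to -2.94 at 4000 UMIs. After 5-FU it went from 6.16 to 1.45 at 4000 UMIs, 3.70 without the extreme 2% of cells and 1.41 without the deepest 5%. Differences between members and other cells in lineage programs depended most on depth. In unthinned counts they were, at homeostasis, 2.37 (stem cell, turned from -14.5), 33.2 (neutrophil, from 12.4), 14.1 (megakaryocyte, from -0.749), 11.7 (erythroid, from 1.55) and 24.4 (lymphoid, from 5.76). After 5-FU they were 6.55 (stem cell, turned from -31.5), 27.0 (neutrophil, from 6.35), 25.3 (megakaryocyte, from 7.71), 28.8 (erythroid, from 8.06) and 10.4 (lymphoid, from -0.595). With at least 2 genes of a list, stem cell was -7.03 and -25.0 at homeostasis and after 5-FU, megakaryocyte -4.58 and 3.05, and lymphoid after 5-FU -4.47. With at least 4, stem cell was -18.6 and -26.7, neutrophil at homeostasis 5.08, erythroid 0.780 and 2.87, and lymphoid at homeostasis 0.680. Without the deepest 5%, neutrophil was 9.89 and 1.07, and after 5-FU stem cell was -28.0 and lymphoid 1.35. With members at 5 genes and others at none, stem cell after 5-FU was -34.8. The B lineage program stayed within its interval in every setting run.

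Counts of genes past 2-fold between genotypes moved with the minimum of UMIs, since many more genes enter without one. At homeostasis 117 higher genes became 2113 without a minimum, 194 with 80% of hashtag UMIs on 1 tag and 60 without lineage program cells, and 271 lower genes became 1465 without a minimum and 178 without lineage program cells. After 5-FU 55 higher genes became 854 without a minimum, and the lower genes became 2124 without a minimum, 102 without the extreme 2% of cells and 101 without lineage program cells. Counts between members and other cells all stayed within 1.5 times. Sign changes were counted only for values whose reported interval was clear of 0, and those of other values fall among the moved or the unmoved. Of 180 genotype values over lists, 9 changed sign in this sense, a further 82 moved outside their counting interval and 89 stayed within it. At homeostasis, with 80% of hashtag UMIs on 1 tag (107 knockout members against 363 as reported), the rule genes were at -0.31, the other G2 and mitosis genes at -0.055 and the gene Ccl5 at 0.25. Without lineage program cells the rule genes were at -0.053, erythroid at -0.14, B lineage at -0.74 and mature blood cells at 0.032. Without the extreme 2% of cells mature blood cells were at 1.47 at homeostasis, and after 5-FU stem cell was at 0.037 and erythroid at 0.0028. Of 240 values over lists in members against other cells, 12 changed sign in the same sense, a further 170 moved outside their counting interval and 58 stayed within it. With the mean of per-cell CPM, erythroid was at -0.019 in wild type at homeostasis and 0.15 in the knockout after 5-FU, mature blood cells at -0.16 and -0.20 in the knockout at homeostasis and after 5-FU, and monocyte and dendritic cell at -0.091 in the knockout after 5-FU. At 4000 UMIs erythroid was at -0.023 and 0.087 in those pools, mature blood cells at -0.27 and -0.16, and lymphoid at 0.039 in wild type after 5-FU. With the median of ratios erythroid in the knockout after 5-FU was at 0.15, and with members at 5 genes mature blood cells in the knockout at homeostasis were at -1.48. The cause of these moves was not tested.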

Other observations

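Barcodes without a hashtag call also held cells that met the rule, 420 of 6283 at homeostasis (6.68%) and 234 of 3290 after 5-FU (7.11%). Their median depth was 5918 and 4163 UMIs. They entered only the setting that asked for 80% of hashtag UMIs on 1 tag, which took any barcode whatever its call. After 5-FU that setting held 5418 wild-type and 4542 knockout cells, against 5302 and 3727 with a single call.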
